A study of Mus musculus with 18 samples.

Results

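The genes described here encode nuclear subunits of the oxidative phosphorylation machinery: complexes I, II, III, IV and V of the inner mitochondrial membrane, together with cytochrome c. The list held 49 genes, taken by symbol, and 48 of them had at least 1 probe set that the array annotation ties to a single gene (Cox7b had none). Those 48 were drawn from 18194 gene symbols on the array and had 105 of its 45101 probe sets. Where a gene had several, the probe set with the highest mean over the 17 arrays in use was taken. As grouped here, complex I had 14 genes, complex II 4, complex III with cytochrome c 7, complex IV 9 and complex V 14. Ndufa4 was counted with complex I, as its name has it, which need not be the complex its product belongs to.

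RNA came from mononucleated cells of the mouse tibialis anterior muscle, sorted by flow cytometry for syndecan-3, a surface proteoglycan that the study used to mark satellite cells, the resident muscle stem cells. All mice were females, of 3 to 6 months by the labels and of 3 months by the methods for these sorted muscles. Wild-type (WT) mice were a C57Bl/6 by DBA2 cross, and Sdc4-/- mice carried a homozygous deletion of syndecan-4 on C57Bl/6, so that strain and genotype cannot be told apart. Each genotype was sampled uninjured, 12 h and 48 h after injury of the muscle with 1.2% barium chloride, with 3 arrays per group. RNA of 5000 cell equivalents per array went through 2 rounds of T7 amplification before hybridization. Values are log2 GCRMA signals, on which 1 unit is a 2-fold difference. Array signals are not on a per-length or molar scale, so where genes are ordered or grouped below by mean signal, that ranks probe signal and not transcript abundance. The study set aside 1 uninjured WT array because it clustered with the 12 h arrays, without giving its number. Replicate 3 was taken as that array and left out here, which leaves 2 arrays in the group. Nothing in the labels ties an array to an animal, so the tests measure the spread between these arrays.

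Oxidative phosphorylation passes electrons from NADH (through complex I) or succinate (through complex II) to ubiquinone, on through complex III and cytochrome c to complex IV, where oxygen is reduced. The proton gradient built on the way drives ATP synthesis by complex V. Quiescent satellite cells are known for few mitochondria and low metabolic activity, and activation is accompanied by mitochondrial growth. Most subunits are nuclear genes expressed in every cell type, so their level does not mark a cell type.

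The arrays were not alike in ways that bear on every value at 12 h. The 18 hybridization-control probe sets, which read RNA spiked in at a fixed amount, had mean log2 values of 7.86 and 8.94 in the uninjured WT arrays in use, 13.54 to 14.30 in the WT 12h arrays, and 8.74 to 12.503 in the other groups. The 3′ Actb control lay at 11.57 or above on all arrays in use except WT 12h replicates 2 (3.98) and 3 (8.37). Between 2832 and 3982 probe sets exceeded log2 5 on the WT 12h arrays, and between 5076 and 7864 did on the rest of the 17. The 10 satellite cell markers had a mean level per array of 4.86 to 4.94 in uninjured WT, 3.23 to 3.57 in WT 12h and 3.55 to 4.59 in the remaining groups. Among them Pax7 averaged 4.87 in uninjured WT and at most 2.60 elsewhere and Myod1 at most 2.62 in any group, whereas Vcam1 averaged 7.21 in uninjured WT and 3.27 in WT 12h, and Met 7.01 in Sdc4-/- 48h. Macrophage markers were high in the sorted cells, with Csf1r at a mean of 11.44 in uninjured WT, 2.95 in WT 12h and 12.25 or more in the remaining groups. Over the 8 macrophage genes the mean level per array was 5.44 to 9.44 in uninjured WT, 3.33 to 4.24 in WT 12h, 9.88 to 10.19 in WT 48h, 10.51 to 11.11 in uninjured Sdc4-/-, 7.38 to 9.35 in Sdc4-/- 12h and 10.16 to 10.26 in Sdc4-/- 48h. Markers of several other cell types were lower in WT at 12 h as well. The 6 fibroblast genes had a mean level of 7.68 to 8.41 in uninjured WT and 3.45 to 4.67 in WT 12h, the 6 of pericytes and smooth muscle 7.98 to 8.97 and 4.83 to 6.18, and the 7 of endothelium 5.91 to 7.41 and 3.10 to 4.65. In WT 48h these stood, in the same order, at 3.08 to 3.63, 4.42 to 5.37 and 2.98 to 3.75. The 5 measured neutrophil genes did not share that fall. They had a mean level of 5.65 to 5.99 in uninjured WT, 3.59 to 6.79 in WT 12h, 7.14 to 8.52 in uninjured Sdc4-/- and 6.41 to 8.62 in Sdc4-/- 12h. The 8 muscle fibre genes averaged 3.89 to 6.05 on every array. The part that sample makeup, RNA amount or amplification had in the results below was not tested, and in sorted bulk samples fewer cells of a type and less RNA per cell cannot be told apart. In the knockout check, 1 Sdc4 probe set read 2.36 and 3.57 in uninjured WT, 5.59 to 7.62 in WT 48h and 2.41 to 2.60 on all 9 Sdc4-/- arrays. A second one read 4.08 and 5.20, 6.88 to 8.11, and 3.39 to 6.53 on the same arrays, with the 6.53 on Sdc4-/- 48h replicate 3, so both probe sets separated the genotypes at 48 h, and on both the genotypes overlapped at the earlier times.

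**Figure D1:**
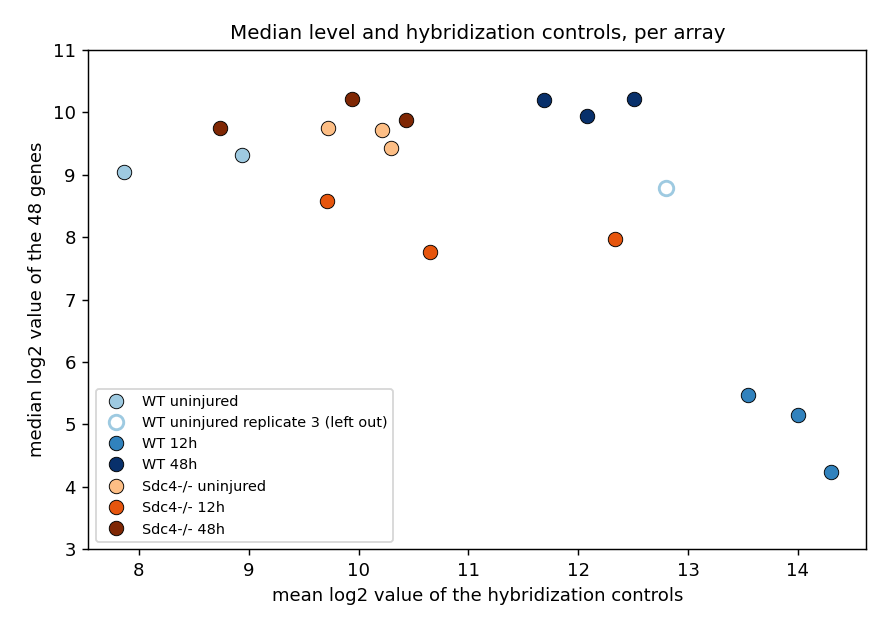
Each point is 1 array, with the hybridization control level (log2, mean of the 18 probe sets) on the horizontal axis and the median log2 value of the 48 oxidative phosphorylation genes on the vertical axis; colour marks the group, and the open circle is the WT uninjured array left out. The WT 12h arrays sit alone at the lower right, with control means of 13.54 to 14.30 and gene medians of 4.23 to 5.47.

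In uninjured WT cells the 48 genes had a median log2 value of 9.17 ± 0.19 (SD, n = 2 arrays), and in uninjured Sdc4-/- cells 9.63 ± 0.17 (n = 3). At 12 h the median was 4.95 ± 0.64 in WT (n = 3) and 8.11 ± 0.43 in Sdc4-/- (n = 3). At 48 h it was 10.12 ± 0.15 in WT and 9.95 ± 0.24 in Sdc4-/-. Every complex had its lowest value at 12 h in both genotypes. Complex I stood at 9.17 ± 0.19 in uninjured WT, 5.52 ± 0.60 at 12 h and 10.29 ± 0.33 at 48 h, and complex V at 9.19 ± 0.23, 4.18 ± 0.90 and 9.998 ± 0.108. In Sdc4-/- cells the same complexes went from 9.87 ± 0.05 to 7.95 ± 0.52 and 10.04 ± 0.27, and from 9.63 ± 0.26 to 8.14 ± 0.50 and 9.80 ± 0.26. Complex III at 12 h had the widest spread of all, since 1 WT array read 7.77 while the other two read 3.84 and 3.79. The level of the genes ranged widely: 2 averaged under 4, near the floor of these arrays, 10 between 4 and 6, 7 between 6 and 8, 21 between 8 and 10, and 8 at 10 or above.

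**Figure D2:**
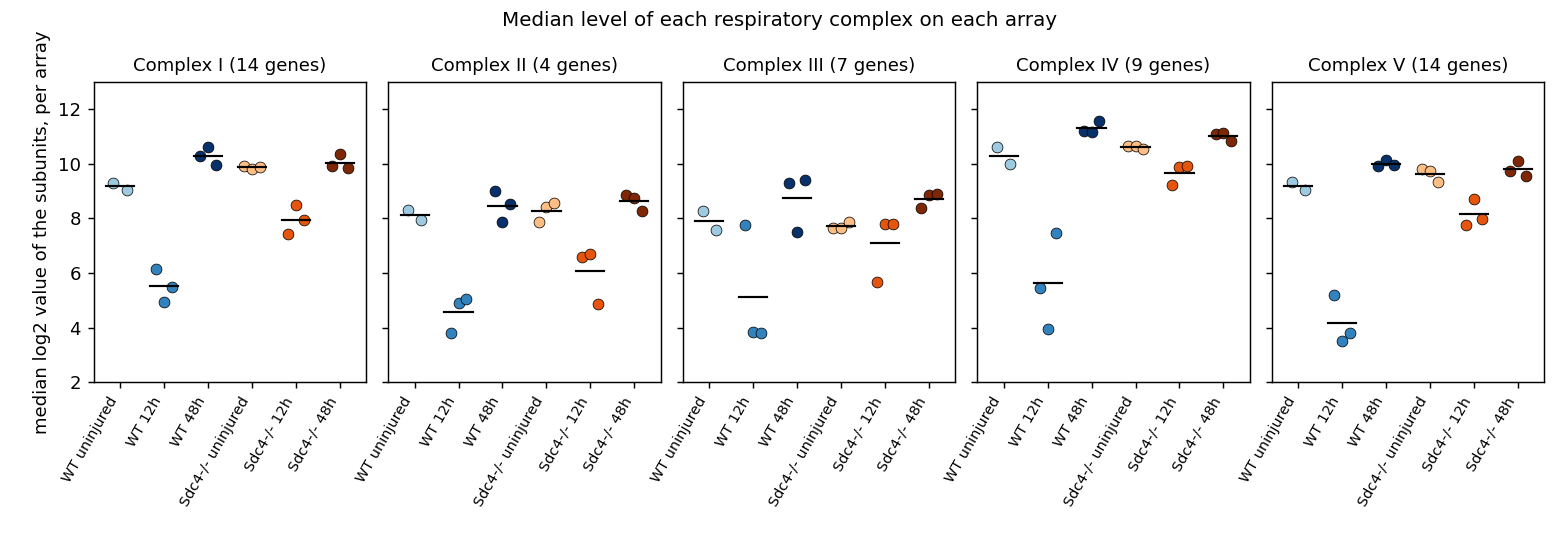
Median log2 value of the subunits of each respiratory complex on each of the 17 arrays, in 1 panel per complex, with the 6 genotype and time groups on the horizontal axis; a point is an array and a bar is the mean of a group. In every panel the WT 12h mean is lowest, the Sdc4-/- 12h mean lies between it and the uninjured means, single arrays overlap in complexes II and III, and the 48h means are at or above the uninjured ones.

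The first question was how these transcripts changed within 12 h of injury in WT cells. By limma, with Benjamini-Hochberg adjustment over all probe sets, 30 of the 48 genes were lower, 1 was higher (Uqcrh) and 17 did not pass an adjusted p of 0.05. The median log2 change was -3.31. Over all 18194 genes, 20.8% were lower and 19.6% higher, with a median change of 0.09. Transcripts with a high mean level fell as a class, however. Of the 796 genes whose mean log2 level reached 8, 54.1% were lower (median change -2.99), against 20 of the 29 oxidative phosphorylation genes in that range (69.0%, median -3.93). The excess of the 48 genes over the array as a whole was thus much smaller beside genes of similar level. Without WT uninjured replicate 1, 18 of the 48 were called (17 lower), and with the hybridization controls as a covariate 4 (all lower). Those controls averaged 8.40 (SD 0.76) in uninjured WT and 13.95 (SD 0.38) in WT 12h, without overlap. The covariate fit thus extrapolates far beyond the spread within a group and does not settle their part.

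The 3 WT 12h arrays did not share 1 pattern of loss. Of the 48 genes, 27 were more than 1 log2 unit below the uninjured mean on all 3 arrays, 11 kept 1 array near or above that mean, 4 kept 2 and 6 kept all 3. Among the 29 of high level, 18 (62.1%) were below on all 3, beside 45.7% of the 796 genes of high level. A further 10 (34.5%) kept 1 array, beside 28.8%, and 1 (3.45%) kept 2, beside 19.5%. None of the 29 kept all 3, beside 6.03%, so the 6 that did were of lower level. The highest of the 3 arrays was not always the same: replicate 1 for 18 genes, replicate 2 for 10 and replicate 3 for 20. Being highest does not mean that the signal was kept. On replicate 2, 65.5% of the oxidative phosphorylation genes of high level read under log2 5, against 24.1% on replicate 1 and 34.5% on replicate 3. Among the 796 genes of high level the values were 56.8%, 17.7% and 30.7%. The range over the 3 arrays exceeded 4 log2 units, a 16-fold difference, for 16 of the 48 genes, and for none of them in any other group. Of those 16, 15 were among the 29 of high level, whose median range in WT 12h was 4.11. Among the 796 genes of high level a range over 4 was seen for 358 (45.0%, median range 3.59) in WT 12h and for at most 3.52% elsewhere. The scatter was thus not particular to these genes. Across the 48 genes, pairs of WT 12h arrays correlated at r = 0.131 to 0.357, whereas pairs within each other group correlated at 0.923 to 0.993. These correlations are over genes, which are not independent replicates.

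**Figure D3:**
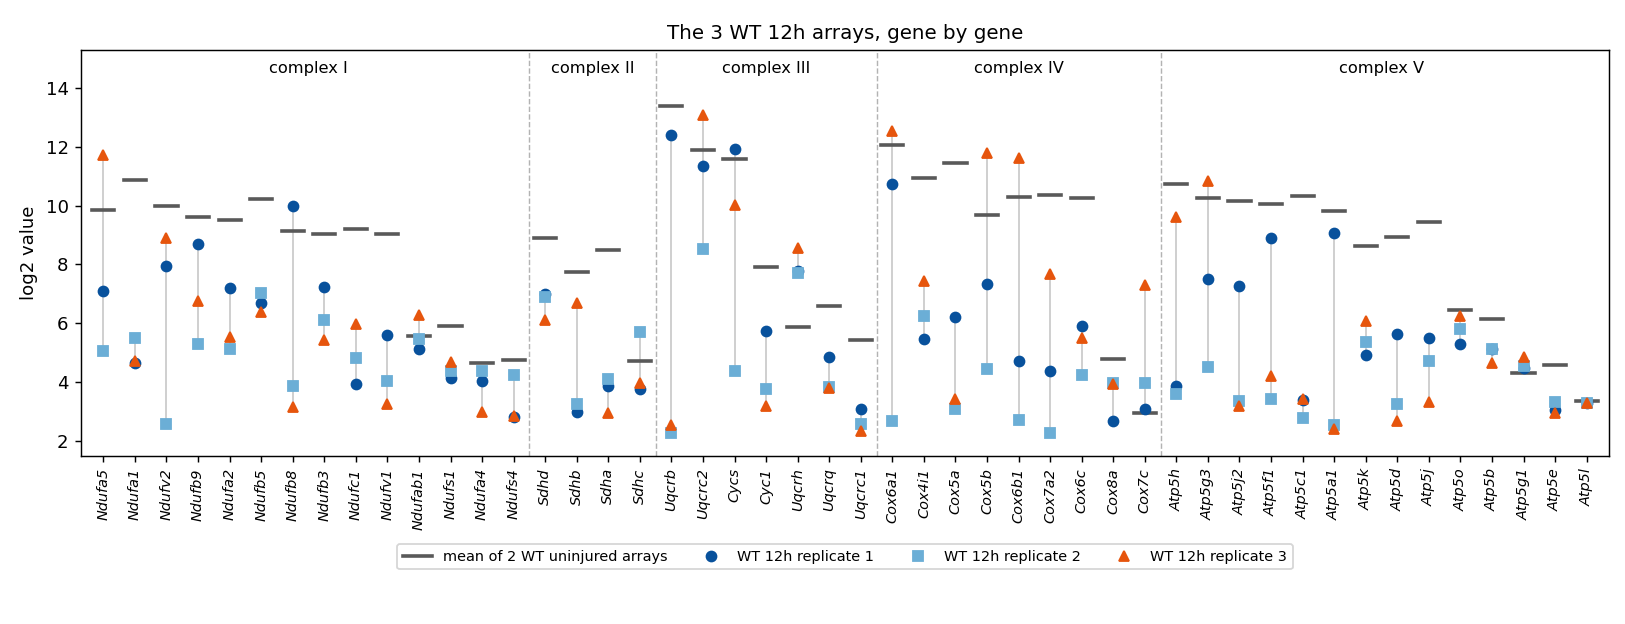
Log2 value (vertical axis) of each of the 48 genes (horizontal axis, by complex and mean level) on the 3 WT 12h arrays, as a circle, square and triangle for replicates 1, 2 and 3, with a grey bar at the mean of the 2 uninjured WT arrays. For 16 genes the 3 symbols are more than 4 log2 units apart, and different replicates are highest for different genes.

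In Sdc4-/- cells at 12 h, 10 of the 48 genes were lower and none was higher, with a median log2 change of -1.25. The fit shares 1 estimate of spread per gene over all 6 groups. Where the WT 12h arrays scattered, this widened the SE of the Sdc4-/- change and narrowed that of the WT change. A missing call in Sdc4-/- is therefore no sign of scatter among its own arrays, and the counts of calls in the genotypes are not a like comparison. At an unadjusted p under 0.05, 21 were lower and 0 higher, beside 2829 and 1493 of all 18194 genes. Of the 796 genes of high level, 149 were lower at that p, against 12 of the 29 here. By adjusted p, 7.23% of all genes were lower, and among genes of high level 8.17% (median change -0.40), against 6 of the 29 oxidative phosphorylation genes of high level (20.7%, median -1.38). Here the share was above both backgrounds. The direction was wider than the calls: for 36 of the 48 genes all 3 Sdc4-/- 12h arrays were below all 3 uninjured ones, where 17.5% of all genes and 37.2% of genes of high level had that order. Among the 29 of high level it was 24. In WT cells the same order was found for 34 of the 48 genes, beside 30.1% of all genes and 55.9% of those of high level. The 10 genes called were Ndufa2, Ndufb5 and Ndufb9 of complex I, Sdha of complex II, Uqcrc1 and Uqcrh of complex III, Cox4i1 of complex IV, and Atp5c1, Atp5k and Atp5o of complex V. Of these, 8 were also lower in WT cells, which is 80.0% of the Sdc4-/- list and 26.7% of the WT list. The others were Uqcrh and Atp5o, each of which had a second probe set that was called lower in WT. Some cell type markers were also lower at 12 h, more of them in WT than in Sdc4-/-, and their part was not tested. Called lower at 12 h were 5 of 8 macrophage genes in WT and 2 in Sdc4-/-, 3 of 6 fibroblast genes and 0, 4 of 6 of pericytes and smooth muscle and 1, 3 of 7 endothelial genes and 2, and 5 of 10 satellite cell genes and 0. Of 5 neutrophil genes 1 was lower in each genotype, and of 8 muscle fibre genes 0. The count of 10 fell to 4 or 5 without Sdc4-/- uninjured replicate 1 or 2 or Sdc4-/- 12h replicate 1 or 3, and rose to 17 without WT 12h replicate 1, which enters this comparison only through the shared estimate of spread.

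**Figure D4:**
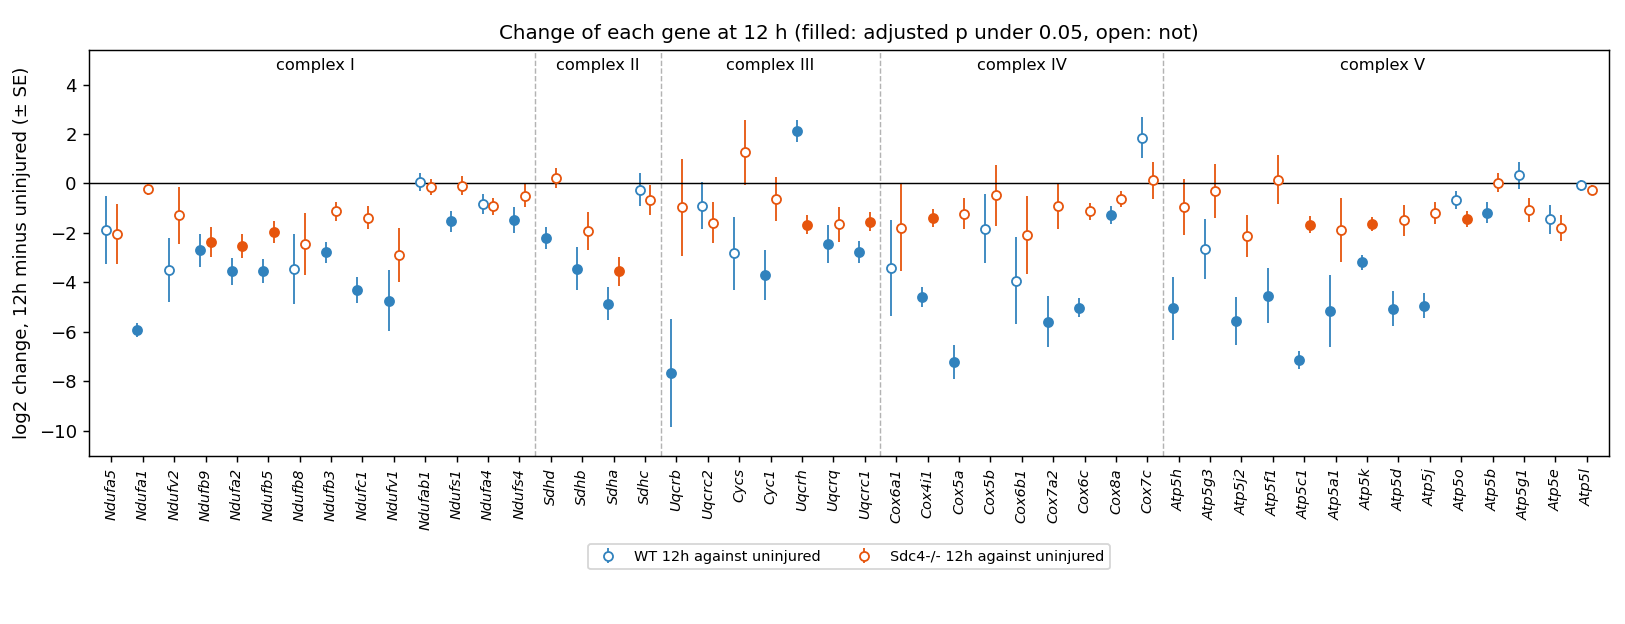
Log2 change at 12 h against uninjured (vertical axis, ± SE from the fit) of each of the 48 genes (horizontal axis, by complex), in blue for WT and orange for Sdc4-/-; filled points passed an adjusted p of 0.05. The WT points reach -7.66 and most lie below the orange ones, with Uqcrh as the filled blue point above 0.

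Complex I oxidizes NADH. Ndufa1, a small accessory subunit that is X-linked, had the smallest adjusted p of the whole list in WT cells. It read 11.01 and 10.71 on the uninjured WT arrays, 4.64, 5.48 and 4.71 at 12 h, and 11.30, 11.26 and 11.10 at 48 h. The Sdc4-/- arrays read 10.19, 10.73 and 10.23 uninjured, 9.79, 10.59 and 10.09 at 12 h, and 11.65, 11.35 and 11.63 at 48 h. The WT arrays at 12 h thus stood far below all others, while the Sdc4-/- arrays at 12 h overlapped the uninjured ones. The change in WT was -5.92 ± 0.27 (SE, adjusted p = 1.24e-07), that in Sdc4-/- -0.23 ± 0.25 (adjusted p = 0.649), and the difference between the changes 5.69 ± 0.37 (adjusted p = 8.29e-06). Ndufc1, another accessory subunit, read 9.31 and 9.10 in uninjured WT and 3.94, 4.82 and 5.96 at 12 h. It changed by -4.30 ± 0.52 in WT (adjusted p = 8.78e-05) and by -1.38 ± 0.47 in Sdc4-/- (adjusted p = 0.113), a difference of 2.91 ± 0.70 (adjusted p = 0.0197).

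The complex I gene with the highest mean signal, Ndufa5, showed the scatter of the WT 12h arrays instead. It read 10.42 and 9.25 uninjured and 7.10, 5.05 and 11.71 at 12 h, so 1 array at 12 h was above both uninjured ones, and the change of -1.88 ± 1.36 did not pass (adjusted p = 0.291). Ndufb8 was alike in kind, at 9.99, 3.87 and 3.15 at 12 h against 9.31 and 8.97 uninjured, but there it was replicate 1 that kept its signal. Ndufv1, the core subunit that binds NADH and flavin mononucleotide, read 9.14 and 8.92 in uninjured WT and 5.60, 4.05 and 3.24 at 12 h (change -4.74 ± 1.22, adjusted p = 0.00994). With the hybridization controls as a covariate this WT change became 1.80 (adjusted p = 0.838). In Sdc4-/- cells it had the largest change of complex I at 12 h, -2.90 ± 1.09 (adjusted p = 0.157), with arrays at 7.89, 8.57 and 4.67 against 10.04, 9.60 and 10.18. Ndufab1, the mitochondrial acyl carrier protein, which also serves fatty acid synthesis in mitochondria, had the largest adjusted p of complex I at 12 h in WT cells (change 0.07 ± 0.36, adjusted p = 0.891). The accessory subunits Ndufa2, Ndufb5 and Ndufb9 fell in both genotypes. Ndufa2 changed by -3.56 ± 0.56 in WT and -2.53 ± 0.50 in Sdc4-/-, Ndufb5 by -3.54 ± 0.48 and -1.96 ± 0.43, and Ndufb9 by -2.71 ± 0.67 and -2.38 ± 0.60. In all, 9 of the 14 complex I genes were lower in WT at 12 h and 3 in Sdc4-/-, and 13 and 14 of them had a negative change. Those shares, 64.3% and 21.4%, are over subunits of any level. They stand beside 20.8% and 7.23% of all genes, and 54.1% and 8.17% of genes of high level, as given above. A negative change was seen for 8280 and 8242 of all 18194 genes, and for 736 and 492 of the 796 of high level.

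Complex II, succinate dehydrogenase, is shared with the tricarboxylic acid cycle. Its catalytic flavoprotein Sdha fell in both genotypes. It read 8.81 and 8.20 in uninjured WT, 3.87, 4.11 and 2.94 at 12 h, and 9.41, 8.63 and 8.59 at 48 h. Those of Sdc4-/- read 9.52, 9.14 and 8.88 uninjured, 6.61, 6.40 and 3.85 at 12 h, and 8.86, 8.96 and 8.34 at 48 h. No 12 h array overlapped an uninjured one of its genotype. The change was -4.87 ± 0.67 in WT (adjusted p = 0.000202) and -3.56 ± 0.60 in Sdc4-/- (adjusted p = 0.00366), the latter being the largest among the probe sets used for the 48 genes. The difference between the 2 changes was 1.31 ± 0.90 (adjusted p = 0.364). A second Sdha probe set, with a mean of 7.07, changed by -3.75 in WT (adjusted p = 0.000132) but by -1.08 in Sdc4-/- (adjusted p = 0.187). Sdhb, the iron-sulfur subunit, read 7.82 and 7.70 in uninjured WT and 3.00, 3.26 and 6.69 at 12 h (change -3.44 ± 0.86, adjusted p = 0.00869). Sdhc and Sdhd are the membrane anchors that bind ubiquinone. Sdhc averaged 4.67 over the 17 arrays and did not pass at 12 h in either genotype. Sdhd fell in WT, from 8.93 and 8.84 to 7.01, 6.89 and 6.13 (change -2.21 ± 0.44, adjusted p = 0.0024), whereas its Sdc4-/- arrays read 7.36, 8.47 and 8.62 uninjured and 8.19, 9.11 and 7.83 at 12 h. The difference between the genotypes in that change was 2.44 ± 0.60 (adjusted p = 0.0213). Sdhd is also a gene whose WT change at 12 h became 0.15 after a further quantile normalization of the arrays. In all, 3 of the 4 complex II genes were lower in WT at 12 h (75%) and 1 in Sdc4-/- (25%), as were 4 (57.1%) and 2 (28.6%) of the 7 complex III genes described next. Of all genes 20.8% and 7.23% were lower, and of genes of high level 54.1% and 8.17%.

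Complex III hands electrons from ubiquinol to cytochrome c. Uqcrb, a small subunit near the ubiquinone site, had the highest mean signal of the 48 genes. On the WT 12h arrays it read 12.42, 2.25 and 2.54, against 13.92 and 12.87 uninjured and 13.92, 13.65 and 13.83 at 48 h. It therefore lay near its usual level on replicate 1 and at the floor on the others. The change of -7.66 ± 2.18 passed (adjusted p = 0.0164) and is the largest of the 48, but it rests on WT 12h replicates 2 and 3. Uqcrb in Sdc4-/- cells read 13.49, 13.71 and 14.002 uninjured and 11.81, 13.04 and 13.45 at 12 h (change -0.97 ± 1.95, adjusted p = 0.816). A second Uqcrb probe set changed by -2.14 in WT. Uqcrc1, a core protein of the complex, fell in both genotypes, from 5.62 and 5.27 to 3.08, 2.59 and 2.34 in WT (-2.78 ± 0.44, adjusted p = 0.000506) and from 6.23, 6.21 and 5.49 to 3.48, 5.03 and 4.78 in Sdc4-/- (-1.55 ± 0.39, adjusted p = 0.0345). Its partner Uqcrc2 scattered in WT at 12 h (11.36, 8.52 and 13.10 against 12.59 and 11.19) and did not pass there (adjusted p = 0.471).

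Uqcrh, the acidic hinge protein that helps cytochrome c1 meet cytochrome c, stood apart. Its probe set with the highest mean read 5.79 and 5.98 in uninjured WT, 7.77, 7.69 and 8.55 at 12 h, and 7.68, 7.50 and 6.25 at 48 h. The Sdc4-/- arrays read 7.07, 6.84 and 6.20 uninjured, 5.54, 5.10 and 4.49 at 12 h, and 5.83, 6.01 and 6.43 at 48 h. At 12 h the WT arrays were thus all above, and the Sdc4-/- arrays all below, their uninjured arrays. The changes were 2.12 ± 0.44 (adjusted p = 0.00303) and -1.66 ± 0.40 (adjusted p = 0.0254), and the difference between them -3.78 ± 0.59 (adjusted p = 0.00249). The second Uqcrh probe set disagreed in WT, with a change of -0.69 (adjusted p = 0.0272), and fell as well in Sdc4-/- (-1.09, adjusted p = 0.00533). The rise in WT is therefore a reading of 1 probe set, whose suffix (_s_at) says that it can match more than 1 transcript.

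Cycs encodes cytochrome c, the soluble carrier between complexes III and IV, whose release into the cytosol also starts apoptosis. It read 12.14 and 11.05 in uninjured WT, 11.91, 4.36 and 10.02 at 12 h, and 13.11, 12.82 and 12.68 at 48 h. Only WT 12h replicate 2 was far below the uninjured arrays, and the change of -2.83 ± 1.48 did not pass (adjusted p = 0.148). In Sdc4-/- cells it went the other way from most of the list, from 10.52, 10.86 and 11.18 to 11.96, 12.05 and 12.31 at 12 h, with no overlap but no call either (1.25 ± 1.32, adjusted p = 0.639). That SE draws on the spread shared by all groups, with an SD of 3.93 in WT 12h, 0.33 in uninjured Sdc4-/- and 0.18 in Sdc4-/- 12h. Cycs was the 1 gene of the 48 whose Sdc4-/- 12h arrays were all above the uninjured ones. Cyc1, the haem-bearing cytochrome c1 of complex III, read 8.26 and 7.57 in uninjured WT and 5.73, 3.77 and 3.17 at 12 h (-3.69 ± 1.01, adjusted p = 0.0138). The Sdc4-/- values were 7.64, 7.64 and 7.86 uninjured and 5.67, 7.79 and 7.78 at 12 h, so that 1 array carried the change of -0.63 ± 0.91 (adjusted p = 0.739).

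Complex IV, cytochrome c oxidase, passes electrons to oxygen, and its nuclear subunits surround a core encoded in mitochondrial DNA. Cox5a, which binds the matrix side of the complex, had the largest WT change of complex IV. It read 11.77 and 11.17 in uninjured WT, 6.21, 3.09 and 3.43 at 12 h, and 12.40, 12.18 and 12.13 at 48 h. The Sdc4-/- arrays read 11.77, 11.54 and 11.47 uninjured and 10.27, 10.96 and 9.91 at 12 h. Both genotypes were without overlap, but by amounts that differed. The change was -7.23 ± 0.68 in WT (adjusted p = 1.92e-05), -1.22 ± 0.61 in Sdc4-/- (adjusted p = 0.296), and the difference 6.01 ± 0.92 (adjusted p = 0.00215). Cox6c read 10.52 and 9.98 in uninjured WT and 5.92, 4.23 and 5.51 at 12 h (-5.03 ± 0.38, adjusted p = 5.42e-06; difference from Sdc4-/- 3.91 ± 0.51, adjusted p = 0.000981). Cox4i1, the broadly expressed isoform of subunit 4, was the only complex IV gene called lower in both genotypes on the probe set in use. It went from 11.16 and 10.75 to 5.45, 6.24 and 7.45 in WT (-4.57 ± 0.40, adjusted p = 1.27e-05) and from 11.32, 11.55 and 11.26 to 9.69, 10.04 and 10.24 in Sdc4-/- (-1.39 ± 0.36, adjusted p = 0.0387). Cox5a, Cox6c and Cox7a2 were called in WT alone, though their Sdc4-/- 12h arrays were all below the uninjured ones.

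The rest of complex IV was less uniform. Cox6a1, the non-muscle isoform of subunit 6a and the complex IV gene of highest mean signal, read 10.73, 2.68 and 12.53 at 12 h in WT against 12.39 and 11.75 uninjured, and did not pass (adjusted p = 0.182). Cox6b1, which helps the enzyme pair into a dimer, read 4.72, 2.70 and 11.62 against 10.63 and 9.94 (adjusted p = 0.0955). Cox5b read 7.32, 4.45 and 11.78 against 9.860 and 9.495 (adjusted p = 0.313). In each of these 3, replicate 3 was above both uninjured arrays while replicate 2 was far below. On the Sdc4-/- 12h arrays the same 3 genes were all below their uninjured arrays, at 10.87, 11.09 and 10.72 for Cox6a1, 8.87, 9.90 and 8.77 for Cox6b1, and 9.67, 10.20 and 10.43 for Cox5b, and none was called on the probe set in use. A second Cox6b1 probe set, with a mean of 6.49, fell in Sdc4-/- (-2.21, adjusted p = 0.00359). Cox7c read 2.89 to 3.97 on all WT arrays in use but WT 12h replicate 3, where it read 7.32. In all, 5 of the 9 complex IV genes, of any level, were lower in WT at 12 h (55.6%) and 1 in Sdc4-/- (11.1%). The shares of all genes were 20.8% and 7.23%. Those of genes of high level, 54.1% and 8.17%, were near the shares of complex IV. Second probe sets of Cox6c (-5.63 and -1.98, adjusted p = 5.76e-06 and 0.00888) and Cox7a2 (-3.71 and -1.40, adjusted p = 4.8e-06 and 0.00501) fell in both genotypes as well.

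Complex V is the ATP synthase. Atp5c1, the gamma subunit that forms its rotating central stalk, had the most uniform large fall. It read 10.71 and 9.94 in uninjured WT, 3.38, 2.77 and 3.43 at 12 h, and 11.38, 10.24 and 11.15 at 48 h. The Sdc4-/- arrays read 10.28, 10.69 and 10.38 uninjured, 8.44, 9.28 and 8.63 at 12 h, and 11.14, 11.53 and 10.88 at 48 h. All 3 WT 12h arrays were near the floor, and the Sdc4-/- 12h arrays lay between these and the uninjured level. The change was -7.13 ± 0.37 in WT (adjusted p = 2.92e-07) and -1.67 ± 0.33 in Sdc4-/- (adjusted p = 0.00966), a difference of 5.46 ± 0.50 (adjusted p = 7.57e-05). Atp5k, the small membrane subunit e, fell from 8.67 and 8.62 to 4.91, 5.35 and 6.09 in WT (-3.19 ± 0.31, adjusted p = 2.43e-05) and from 9.98, 9.84 and 9.58 to 8.08, 8.41 and 7.96 in Sdc4-/- (-1.65 ± 0.28, adjusted p = 0.00382). The difference of 1.54 ± 0.42 passed (adjusted p = 0.0351), but became -0.025 after a further quantile normalization.

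Atp5h, a subunit of the peripheral stalk and the complex V gene of highest mean signal, read 3.88, 3.60 and 9.60 at 12 h in WT against 11.22 and 10.27 uninjured (-5.05 ± 1.28, adjusted p = 0.00928). Atp5a1, a catalytic-head subunit, and Atp5f1, another part of the peripheral stalk, had the opposite order of arrays, with replicate 1 at 9.06 and 8.92 and the other two at 2.53 and 2.40, and 3.43 and 4.21. Atp5j2 (subunit f) had the largest Sdc4-/- change of complex V at 12 h, from 11.55, 11.12 and 10.89 to 7.90, 9.56 and 9.73, and was not called there (-2.12 ± 0.86, adjusted p = 0.191), although a second Atp5j2 probe set was (-2.04, adjusted p = 0.0358). Atp5o, the oligomycin sensitivity-conferring subunit, fell in Sdc4-/- (-1.43 ± 0.33, adjusted p = 0.0212), and in WT its arrays read 5.28, 5.82 and 6.25 against 6.53 and 6.40 (adjusted p = 0.16). A second Atp5o probe set, with a mean of 4.14, fell in WT (-1.34, adjusted p = 0.0225) and was not called in Sdc4-/- (-1.12, adjusted p = 0.1). Atp5g1, which encodes a copy of the membrane ring subunit c, changed by 0.32 ± 0.55 in WT (adjusted p = 0.669). Atp5l (subunit g) read 3.19 to 4.403 on all 17 arrays and could show no fall. In all, 9 of the 14 complex V genes, of any level, were lower in WT at 12 h (64.3%) and 3 in Sdc4-/- (21.4%). They are to be read against the same shares of all genes (20.8% and 7.23%) and of genes of high level (54.1% and 8.17%).

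From 12 h to 48 h, 33 of the 48 genes rose in WT cells and none fell, with a median change of 4.01. This comparison shares the WT 12h arrays with the one above, so it is no separate evidence of their low values. Over all genes 9.27% rose, and 58.2% of genes of high level, against 23 of the 29 oxidative phosphorylation genes in that range (79.3%). Uqcrb had the largest rise (8.07 ± 1.95, adjusted p = 0.0171), followed by Cox5a (7.99 ± 0.61, adjusted p = 4.51e-06) and Atp5c1 (7.73 ± 0.33, adjusted p = 5.21e-08). Set against uninjured cells, WT 48h cells had 2 genes called higher, Ndufa4 and Atp5k, and none lower, where 5.47% of all genes were higher. The median change was 0.66, and 40 of 48 were positive. Over all genes it was 0.10, with 11005 of 18194 positive. Over genes of high level it was 0.52 with 537 of 796 positive, against 0.74 and 27 of the 29 here. Ndufa4 read 4.81 and 4.46 uninjured and 5.53, 6.79 and 5.89 at 48 h (1.44 ± 0.40, adjusted p = 0.0343). Atp5k read 8.67 and 8.62 uninjured and 10.46, 10.21 and 9.70 at 48 h (1.48 ± 0.31, adjusted p = 0.00925). None of the 48 passed without WT uninjured replicate 1 or 2, while 4 and 6 did without WT 12h replicates 1 and 3.

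In Sdc4-/- cells at 48 h, 3 genes were higher than uninjured and none lower, all 3 from complex I, where 2.65% of all genes were higher. Ndufab1 read 4.58, 5.38 and 4.55 uninjured and 6.58, 7.14 and 6.13 at 48 h (1.78 ± 0.32, adjusted p = 0.00651). Ndufs1, the largest iron-sulfur subunit of complex I, read 4.85, 5.47 and 5.37 uninjured and 7.47, 7.13 and 6.68 at 48 h (1.86 ± 0.38, adjusted p = 0.0147). Ndufa1 rose by 1.16 ± 0.25 (adjusted p = 0.017). The median change of the 48 genes was 0.32, with 34 positive. Over all genes it was 0.02, with 10532 of 18194 positive. Over genes of high level it was 0.27 with 506 of 796 positive, against 0.28 and 19 of the 29 here. Without Sdc4-/- uninjured replicate 1 or Sdc4-/- 48h replicate 1 only 1 of the 48 was called.

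The remaining question was whether genotype changed the course of these transcripts. In uninjured cells none of the 48 genes differed between Sdc4-/- and WT by limma, where 2.96% of all genes were lower and 1.32% higher in Sdc4-/-. At an unadjusted p under 0.05, 3 were higher and 0 lower, beside 1134 and 1541 of all 18194 genes. Of the 796 genes of high level, 93 were higher and 20 lower at that p. The methods' analysis of variance called 1 of the 48. The median difference was 0.20, with values from -0.74 to 1.55. In the 12 h change, 11 of the 48 differed toward a smaller fall in Sdc4-/- and 1 (Uqcrh) the other way, beside 6.32% and 5.7% of all genes. Among genes of high level 26.8% differed toward a smaller fall, against 11 of 29 here (37.9%). The 11 were Ndufa1, Ndufc1, Sdhd, Cox4i1, Cox5a, Cox6c, Cox7a2, Atp5c1, Atp5d, Atp5j and Atp5k, and all 11 were lower in WT, and 3 of them (Cox4i1, Atp5c1 and Atp5k) in Sdc4-/- as well. For 37 of the 48 the fitted change was more negative in WT, beside 7977 of all 18194 genes. Among genes of high level this held for 723 of 796 (median difference 2.53), against 27 of the 29 here (median 2.91). The direction was thus not particular to these genes. The hybridization controls moved with this contrast, since they rose from a mean of 8.40 to 13.95 between uninjured and 12 h in WT and from 10.08 to 10.90 in Sdc4-/-. With their level as a covariate, 2 of the 48 were called. The total was 7 with all 18 arrays, 7 without either WT uninjured array, and 18 without WT 12h replicate 1.

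At 48 h the change differed between genotypes for 1 gene of the 48, Ndufs1, beside 3.64% of all genes that differed in that direction. Ndufs1 read 6.11 and 5.73 in uninjured WT and 5.24, 4.43 and 5.77 at 48 h, so it changed by -0.77 ± 0.43 there (adjusted p = 0.264) and by 1.86 in Sdc4-/-. The difference was 2.64 ± 0.58 (adjusted p = 0.0253). No other gene of the list passed, and 28 of the 48 differences were negative, beside 10206 of all 18194 genes and 432 of the 796 of high level. No gene was called without WT uninjured replicate 1, Sdc4-/- uninjured replicate 1 or Sdc4-/- 48h replicate 1 or 2, and 4 were (3 lower) without WT 12h replicate 1, 3 without WT 12h replicate 3, and 2 without each WT 48h array or Sdc4-/- uninjured replicate 2.

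**Figure D5:**
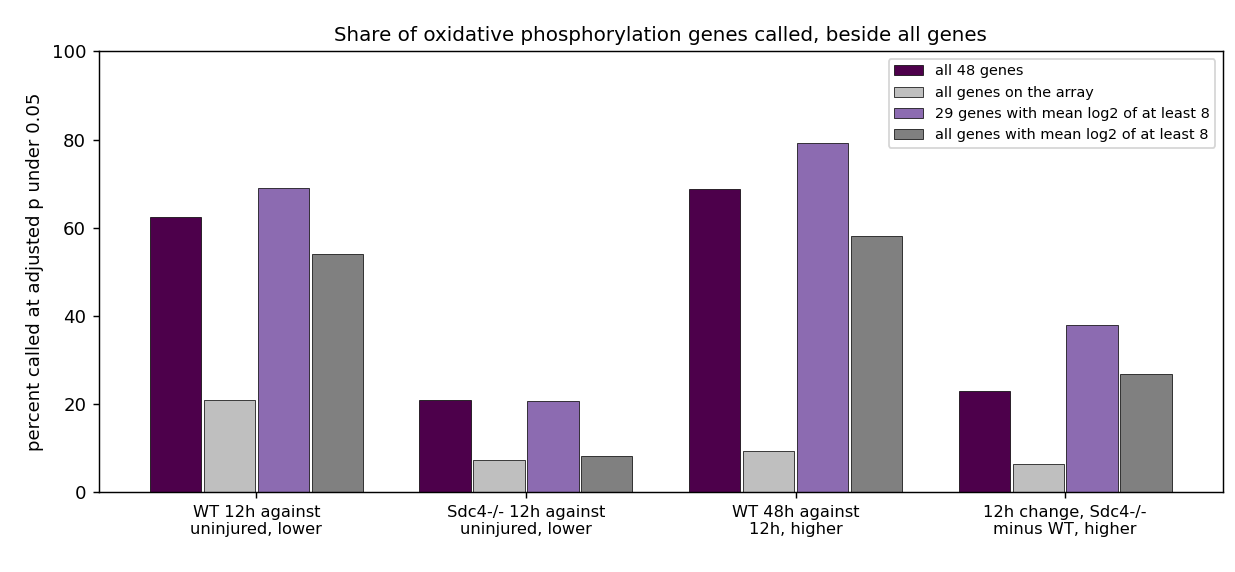
Percent of genes called at an adjusted p of 0.05 (vertical axis, from 0) in 4 comparisons and directions, for the 48 oxidative phosphorylation genes and for all 18194 genes, and for the 29 and the 796 of each whose mean log2 level reached 8. The gap to all genes is wide in each comparison, and beside genes of high level it narrows to 69.0% against 54.1% in WT at 12 h, while in Sdc4-/- at 12 h it is 20.7% against 8.17%.

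The choice of probe set mattered for some genes. Of the 48 genes 34 had more than 1 probe set, and 6 (Atp5j2, Cox8a, Ndufb9, Sdha, Uqcrh and Uqcrq) had a called rise and a called fall among their probe sets in WT at 12 h. Of the 57 further probe sets, 20 were lower and 9 higher in that comparison. All 9 that were higher averaged under 5, and of the 28 further ones with a mean of at least 5, 16 were lower and 0 higher. In Sdc4-/- at 12 h, 7 of the 57 were lower and 0 higher, and 5 genes (Atp5j2, Cox6b1, Cox6c, Cox7a2 and Ndufb8) were called lower there only on a further probe set. The 3 further Cycs probe sets had means of 9.17, 8.88 and 2.40, the last at the floor, and the first 2 changed by -2.86 and -1.60 in WT. The probe sets used ended in _x_at for 8 genes and in _s_at for 12, endings that mark probes which can match other transcripts.

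Genes around the respiratory chain were read for comparison, from lists drawn up by function, with the 20.8% of all genes lower in WT and 7.23% in Sdc4-/- at 12 h as background. Of genes of high level, 54.1% and 8.17% were lower. These lists were not split by level, so the part of signal level in their shares was not tested. The 25 measured other subunits and close partners of the same complexes had 15 lower and 0 higher in WT at 12 h (60%, median -2.83), and 13 lower and 0 higher in Sdc4-/- (52%, median -1.96). Ndufs8, an iron-sulfur subunit of complex I, fell by 7.05 on the log2 scale in WT and by 3.31 in Sdc4-/- (adjusted p = 0.000317). Ndufb6 had a change of -6.01 in WT (adjusted p = 7.46e-08) and -0.68 in Sdc4-/- (adjusted p = 0.118). Atpif1, the inhibitor of ATP synthase hydrolysis, fell in both, by 4.45 and by 1.13. Of 16 genes of the tricarboxylic acid cycle and pyruvate dehydrogenase, 11 were lower in WT (68.8%) and 4 in Sdc4-/- (25.0%). Idh3b changed by -5.05 in WT and -1.52 in Sdc4-/- (adjusted p = 0.174), Pdhb by -3.99 and -0.19 (adjusted p = 0.862), and Suclg2 by -2.68 and -1.69 (adjusted p = 0.00977). Of 12 carriers and outer membrane proteins, 9 were lower in WT (75%) and 2 in Sdc4-/- (16.7%). Slc25a4, the ADP/ATP exchanger of the inner membrane, had changes of -7.49 and -0.60 and Vdac3, an outer membrane channel, of -5.56 and -0.43, of which only the WT values passed. Tomm7, a part of the protein import pore, fell in both (-2.11 and -1.93).

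Assembly factors and regulators were called lower at shares near those of all genes, again without a split by level. Of 26 assembly factors 7 were lower and 2 higher in WT at 12 h, and 2 lower in Sdc4-/- (26.9% and 7.69% lower), with medians of -0.37 and -0.44. Cox19, a copper-handling factor for complex IV, fell in both (-1.71 and -1.80), while Cox10, the haem farnesyltransferase, rose in WT (2.33, adjusted p = 0.00846), and so did Tmem126b (0.87, adjusted p = 0.00173). Of 18 regulators 4 were lower and 2 higher in WT and 2 were lower in Sdc4-/- (22.2% and 11.1% lower). Both of the latter act on mitochondrial DNA: Tfam, its packaging factor, changed by -2.11 in WT and -1.83 in Sdc4-/- (adjusted p = 0.00932), and Polrmt, its RNA polymerase, by -2.99 and -2.69 (adjusted p = 0.0183). Ppargc1a, a coactivator of mitochondrial biogenesis, rose in WT by 1.68 (adjusted p = 0.00133), but at group means of 2.50 and 4.19, near the floor. The tissue-restricted isoforms were also near it. Cox6a2, Cox7a1, Cox8b, Cox4i2, Cox6b2, Ndufa4l2 and Cyct had overall means of 2.82 to 4.45. Of these, Cox8b (2.09, adjusted p = 0.0338) and Cyct (0.78, adjusted p = 0.00139) rose in WT at 12 h, and the others did not pass in either genotype. Cox7a2l, which is expressed broadly, averaged 8.62 and fell in WT (-3.85, adjusted p = 0.0343).

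The promoters of the 48 genes were searched for short motifs of factors known to act on respiratory genes. RefSeq promoters (GRCm38.p6, 250 bases before to 50 after the start) were found for 37 of the 48 genes. The core of the NRF1 motif, GCGCANGCG on either strand, was in a promoter of 12 of the 37 (32.4%) and of 7.03% of all 27025 genes with one. The ETS core CCGGAAG, read by GABPA (also called NRF2), was in 11 (29.7%, against 9.93%), the YY1 core AANATGGCG in 5 (13.5%, against 2.76%), and the estrogen-related receptor motif TCAAGGTCA in 2 (5.41%, against 0.466%). A match is a description of the letters and not a site of binding, and the shares were not split by signal level. With and without a match, the median WT change at 12 h was -2.80 and -3.47 for NRF1 and -3.19 and -3.15 for ETS. For YY1 it was -4.30 and -3.01, and for the receptor motif -2.43 and -3.42. In Sdc4-/- the medians were -1.49 and -1.18 for NRF1 and -1.65 and -1.17 for ETS. There YY1 had -1.18 and -1.25, and the receptor motif -0.05 and -1.29. The following stretches show the match in 1 gene or more of each complex, as 30 bases 5′ to 3′ on the strand of the gene, with the NRF1 match in capitals.
Ndufa5, chr6:24527698-24527727, minus strand: ttgtgtgagctGCGCAGGCGcaaatctacc
Sdha, chr13:74350277-74350306, minus strand: aggggcgtgttGCGCAGGCGcagaatcttc
Sdhd, chr9:50603910-50603939, minus strand: ttcgctggggtGCGCACGCGcggtggcagc
Cycs, chr6:50566612-50566641, minus strand: ccatgctagctCGCATGCGCgcgcacaaac
Cox6a1, chr5:115349101-115349130, minus strand: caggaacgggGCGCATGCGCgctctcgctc
Atp5h, chr11:115420042-115420071, minus strand: ggaccccgacgGCGCAGGCGccgcgcccgc
Atp5k, chr5:108434430-108434459, minus strand: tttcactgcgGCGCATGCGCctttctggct
In Cycs the match is on the opposite strand, and in Cox6a1 and Atp5k the capitals cover overlapping matches on both strands. Relative to the start of the gene, the first base in capitals is at -61 in Cycs, -55 in Sdha, -79 in Sdhd, -162 in Cox6a1, -141 in Atp5h and -50 in Atp5k. These genes behaved unlike each other at 12 h, from Sdha, which fell in both genotypes, to Cycs, which was called in neither. The same holds for Cox6a1, whose WT arrays scattered from 2.68 to 12.53.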

How the data were processed

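The deposited values are log2 signals per probe set of Affymetrix whole-genome mouse arrays (18 arrays, 6 groups of 3), which the authors summarised and normalized with GCRMA in Spotfire DecisionSite 2 after scanning in GCOS. Detection calls and the versions of GCOS and GCRMA are not given in the sources used here, and the number of arrays, not a read depth, limits precision. The annotation ties 34958 probe sets to 1 symbol, 932 to several and 9211 to none. Atp5f1 was matched as Atp5pb through its Entrez ID. The 49 genes, the related and marker lists and the tests were chosen with earlier results of these data known. One fit of the 6 groups on 17 arrays was made with limma 3.58.1 in R 4.3.3 (lmFit, contrasts, eBayes; 11 residual degrees of freedom), adjusted by Benjamini-Hochberg over 45101 probe sets and called at 0.05. WT uninjured replicate 3, with hybridization controls at 12.80, was left out as the array the study set aside; the methods do not number it. Named genes were, per complex, the highest mean, the 2 smallest and 2 largest adjusted p in WT at 12 h, and the largest changes in 3 further comparisons, all of complex II, Cycs, Cyc1 and Uqcrb; other genes were named after their values were seen. A change of sign counts as a reversal only where 1 of the fits makes a call. The fit was tested on simulated data. Alternatives were other arrays, sample sets, moderation, call rule, scaling, filter, probe sets, a replicate block, a covariate and each array left out; WT 12h with replicate 1 alone was added after seeing the data. Same-numbered arrays of different groups deviated together at a mean r of -0.00179 over 40 pairs, so numbers do not pair the arrays. No 2 arrays held identical values. Figures were drawn with matplotlib 3.10.9.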

Additional observations from a re-analysis of the deposited data

Results flagged for a closer look

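The change at 12 h differed between the genotypes, by the interaction term of the limma fit, for 12 of the 48 genes. Given as Sdc4-/- minus WT on the log2 scale, the differences were 6.01 for Cox5a, 5.69 for Ndufa1, 5.46 for Atp5c1, 4.67 for Cox7a2, 3.91 for Cox6c, 3.75 for Atp5j, 3.57 for Atp5d, 3.19 for Cox4i1, 2.91 for Ndufc1, 2.44 for Sdhd, 1.54 for Atp5k and -3.78 for Uqcrh. The adjusted p of Cox7a2 was 0.0495, the nearest to the threshold. The hybridization controls differed between the same arrays (means of 13.95 in WT 12h and 10.90 in Sdc4-/- 12h), and their part in these differences was not tested beyond the covariate fit, which called 2. The change at 48 h differed for Ndufs1 alone, by 2.64.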

How the results depend on the processing

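Counts are of the 48 genes called, and medians are of their log2 changes; the cause of a shift was not tested unless stated. In WT at 12 h, 31 calls became 19 with only the groups compared in the fit (fewer arrays estimate the spread), 20 after a further quantile normalization (17 lower and 3 higher), 4 with the hybridization controls as a covariate, and 18 to 33 with single arrays left out. Its median of -3.31 became -2.08 after quantile normalization, -2.27 with probe sets averaged per gene, -2.21 with the covariate, -2.08 with WT 12h replicate 1 alone and -3.48 to -2.44 with arrays left out. In WT at 48 h against uninjured, 2 calls became 1 with all 18 arrays, 4 with only the groups compared, 1 after quantile normalization, 8 after scaling to a common 75th percentile, 1 with probe sets averaged, 0 with the covariate and 0 to 6 with arrays left out; the median became 1.09 with the covariate and 0.30 to 0.92 with arrays left out. In WT at 48 h against 12 h, 33 calls became 13 with only the groups compared, 20 with the covariate and 24 to 34 with arrays left out. Its median became 2.99 after quantile normalization, 2.82 with the mean of probe sets, 3.58 with the covariate, 2.66 with WT 12h replicate 1 alone and 3.14 to 4.54 with arrays left out. In Sdc4-/- at 12 h, 10 calls became 4 after quantile normalization (median -0.80), 6 with the covariate and 4 to 17 with arrays left out (median -1.36 to -1.05). In Sdc4-/- at 48 h, 3 calls became 1 with all 18 arrays, 6 with only the groups compared, 0 after quantile normalization and 1 to 4 with arrays left out (median 0.23 to 0.43). Between uninjured genotypes, 0 calls became 1 with all 18 arrays, 1 by the methods' analysis of variance and 0 to 1 with arrays left out (median 0.09 to 0.55). For the genotype difference in the 12 h change, 12 calls became 7 with all 18 arrays, 7 with only the groups compared, 5 after quantile normalization, 2 with the covariate and 7 to 18 with arrays left out. Its median became 1.16 with the mean of probe sets, 1.09 with the covariate, 1.00 with WT 12h replicate 1 alone and 1.27 to 1.79 with arrays left out. For the difference in the 48 h change, 1 call became 0 with all 18 arrays, 9 (8 lower, so reversed in balance) with only the groups compared, 4 by the analysis of variance, 0 after quantile normalization, 2 with the 75th percentile, 0 with the covariate (median -0.70) and 0 to 4 with arrays left out (median -0.48 to -0.08); the 4, without WT 12h replicate 1, were 3 lower and 1 higher.

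Of the named genes, 5 values changed sign. After quantile normalization Sdhd changed by 0.15 in WT at 12 h and by -0.81 from 12 h to 48 h, Ndufab1 by -1.44 from 12 h to 48 h, and the Atp5k genotype difference was -0.025; with the covariate Ndufv1 changed by 1.80 in WT at 12 h. Over 27 named genes and 28 alternatives, 5670 values kept direction and side of the threshold, 79 passed only in the alternative and 151 no longer passed. With the replicate number as a block, the calls were 28, 2, 32, 9, 3, 0, 10 and 1 in the order above; the numbers do not pair the arrays. Signal over background was the limit for Cox7c and Atp5l, which averaged under 4.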
